A study of Homo sapiens with 80 samples.

Results

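The genes described here lie in a 10.82 Mb stretch of the short arm of chromosome 6 in which PRO-seq counts were higher in lenalidomide-regrown SU-DHL-1 lymphoma cells than in parental cells. PRO-seq (precision run-on sequencing) reads RNA that engaged polymerase is still making, so a count follows transcription rather than the amount of mature RNA. Members were chosen by position and depth: gene starts between 21.4 and 32.2 Mb (hg38, the build listed for the PRO-seq table) and a mean of at least 50 counts over the 6 PRO-seq libraries. The stretch held 224 genes of the table, of which 203 reached that floor. HLA genes and clustered histone genes (56 in all) and 4 further genes, CSNK2B, IER3, HSPA1A and HSPA1B, were left out, which left 143 members of 17792 genes. Of these 143 genes, 137 had a row in the RNA-seq tables and 96 in the DGE table, 2 of them under another symbol. The ends of the stretch were selected on the measured PRO-seq difference between regrown and parental cells, so PRO-seq values of members are given as a description without a test. Tests are given for RNA-seq and DGE, whose libraries the rule did not use. Their regrown cells came from the same 3 resistant pools as those of PRO-seq, described below.

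SU-DHL-1 and KI-JK are cell lines grown from a T-cell lymphoma, the anaplastic large cell type that carries an ALK fusion. Lenalidomide is an immunomodulatory drug that turns the ubiquitin ligase adaptor cereblon against proteins such as the zinc finger proteins ZFP91 and IKZF1. The series held 80 samples, of which 42 libraries in 14 groups of 3 are used, and the other 38, from ChIP-seq, were not analysed here. Regrown cells were 3 pools of SU-DHL-1, each made resistant separately by long culture with rising lenalidomide and then kept without drug for 2 months or more. PRO-seq compared parental with regrown cells. RNA-seq compared the same 2 kinds of cell after both had received Cas9 and a guide against ZFP91 under doxycycline control, each without doxycycline and after 96 h with 1 ug/ml (called ZFP91 knockout below), so every library of this set came from cells that carried Cas9 and the guide vector. DGE (3' digital gene expression, which counts transcript ends) compared parental and regrown cells after 18 h in DMSO or in 2.5 uM lenalidomide. A last set of RNA-seq compared a CSNK2B overexpression vector with an empty vector in parental SU-DHL-1 and in KI-JK. The 3 libraries of each regrown group came from the 3 pools, whereas nothing in the labels says whether parental libraries came from separate cultures, so p-values may in part rest on technical spread.

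This arm of chromosome 6 carries the major histocompatibility complex and the extended gene clusters on its telomere side. Beside the antigen-presenting genes, the region is crowded with genes of other functions: families of zinc finger and butyrophilin genes formed by repeated duplication on the telomere side, and a dense class III block on the centromere side with complement, tumour necrosis factor family and many housekeeping genes for RNA processing and translation. Members are therefore neighbours on the chromosome rather than parts of one pathway. In the text they are ordered by role.

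Promoters of 5 members are printed because these genes mark the ends, the step and the extremes of the stretch described below: SOX4 near its telomere end, GNL1 at the step, LSM2 as a member that moved in most comparisons, ZBTB12 as the member with the highest PRO-seq difference, and PBX2 at the centromere end. Each runs from 250 bases before to 50 bases after the RefSeq start, 5' to 3' on the gene's own strand (GRCh38.p14). Capitals mark matches on either strand to the GC box letters GGGCGG, to the CCAAT box and to the letters TATAAA of the TATA box. SOX4 is at chr6:21593501-21593800 on the plus strand, GNL1 at chr6:30556440-30556739, LSM2 at chr6:31806917-31807216, ZBTB12 at chr6:31902037-31902336 and PBX2 at chr6:32190153-32190452, the last 4 on the minus strand.
SOX4: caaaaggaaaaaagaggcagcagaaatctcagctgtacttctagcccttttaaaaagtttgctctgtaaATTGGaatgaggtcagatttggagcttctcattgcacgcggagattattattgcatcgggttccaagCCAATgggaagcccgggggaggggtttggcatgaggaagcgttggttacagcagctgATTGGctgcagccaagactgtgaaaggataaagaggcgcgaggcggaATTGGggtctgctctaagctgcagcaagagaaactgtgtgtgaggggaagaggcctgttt
GNL1: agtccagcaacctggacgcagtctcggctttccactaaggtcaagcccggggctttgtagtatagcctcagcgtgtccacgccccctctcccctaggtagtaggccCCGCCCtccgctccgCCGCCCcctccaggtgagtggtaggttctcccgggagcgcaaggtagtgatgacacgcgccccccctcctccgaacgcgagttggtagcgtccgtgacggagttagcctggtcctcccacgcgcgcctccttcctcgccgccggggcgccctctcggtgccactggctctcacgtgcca
LSM2: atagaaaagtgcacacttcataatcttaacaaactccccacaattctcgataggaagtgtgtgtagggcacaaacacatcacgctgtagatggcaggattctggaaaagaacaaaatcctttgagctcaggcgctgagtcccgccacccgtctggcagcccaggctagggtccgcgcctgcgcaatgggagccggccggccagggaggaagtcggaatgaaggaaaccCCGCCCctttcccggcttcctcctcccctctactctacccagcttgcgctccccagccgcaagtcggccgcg
ZBTB12: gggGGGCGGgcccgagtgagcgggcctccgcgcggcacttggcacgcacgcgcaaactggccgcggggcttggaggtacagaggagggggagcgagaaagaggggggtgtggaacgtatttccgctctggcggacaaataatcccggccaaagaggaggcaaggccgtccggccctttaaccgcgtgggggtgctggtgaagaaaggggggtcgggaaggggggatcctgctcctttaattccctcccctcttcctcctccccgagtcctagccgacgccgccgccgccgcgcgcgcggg
PBX2: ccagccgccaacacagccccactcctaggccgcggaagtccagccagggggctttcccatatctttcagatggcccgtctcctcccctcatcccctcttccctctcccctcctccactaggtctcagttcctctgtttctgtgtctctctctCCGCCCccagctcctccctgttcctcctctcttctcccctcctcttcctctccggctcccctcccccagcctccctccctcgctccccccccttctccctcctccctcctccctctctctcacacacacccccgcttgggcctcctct
SOX4 held 4 CCAAT boxes and no GC box, GNL1 held 2 GC boxes, and the other three held 1 GC box each. None of the 5 held a TATA box in this window. In all, 93 members matched a RefSeq promoter, 3 of them under another symbol, against 27305 promoters in the whole table. A GC box was present in 69.9% of the members' promoters and 44.6% of all promoters. CCAAT was present in 41.9% and 35.7%, TATAAA in 8.6% and 12%, the AP-1 letters TGANTCA in 8.6% and 7.76%, and TGGGAA, a core of Ikaros-type binding sequences, in 23.7% and 24.3%. Both strands were searched, and a match that shared letters with a match of another motif was counted for both. The median GC content was 60.0% for members and 58.3% for all promoters. The GC box share of members was uneven, 57.1% of 42 promoters on the telomere side and 80.4% of 51 on the centromere side, as divided below. Promoters of the whole table were not held to the members' count floor, so the 2 sets differ in more than position. These are counts of letters and show no binding.

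The totals per library were 33.5 M to 47.2 M counts in PRO-seq, 15.4 M to 23.1 M in the knockout RNA-seq, 14.4 M to 24.1 M and 23.1 M to 28.9 M in the vector RNA-seq of SU-DHL-1 and KI-JK, and 41571 to 395827 in DGE. In every RNA-seq group 6 of 8 fixed markers of this lymphoma and of T cells reached 1 CPM (a count scaled to the library total), with a summed level of 3780 to 5420 CPM. The T-cell markers CD2 and CD3E were near 0. The B-cell markers MS4A1, CD79A and PAX5 summed to 0.789 CPM or less in the SU-DHL-1 groups, and to 9.13 to 12.5 CPM in the KI-JK groups, nearly all of it PAX5. Of 4 myeloid markers 1 reached 1 CPM (sum 5.5 to 135 CPM), and the 4 epithelial or stromal markers summed to 0.684 to 22.0 CPM. Of the latter, 3 reached 1 CPM with the empty vector in SU-DHL-1, 2 in both KI-JK groups, and 0 or 1 elsewhere. Their sum was 2.24 to 11.2 CPM with the empty vector and 1.4 to 2.46 CPM with CSNK2B in SU-DHL-1. In KI-JK it was 4.48 to 22.0 and 1.82 to 7.81 CPM. The summed lymphoma and T-cell markers were lower in regrown cells (3810 to 4380 CPM) than in parental cells (4790 to 5060 CPM) without doxycycline. The myeloid sum was also lower in regrown cells, 5.5 to 8.34 CPM against 14.9 to 17.2 CPM without doxycycline and 6.79 to 7.5 CPM against 11.3 to 13.2 CPM after knockout. The part of these markers in the results was not tested. In bulk libraries, fewer cells of a kind and less RNA per cell cannot be told apart. ZFP91 RNA was 114 ± 4.44 CPM (SD, n = 3) in parental cells without doxycycline and 88.0 ± 3.22 with it, and 91.4 ± 4.24 and 86.8 ± 12.8 in regrown cells. Neither difference passed the test (adjusted p = 0.158 and 0.395 in edgeR), so RNA levels do not show the knockout, which edits DNA and need not lower the transcript. The vector raised CSNK2B from 30.0 to 251 CPM in SU-DHL-1 and from 17.5 to 78.9 CPM in KI-JK.

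In PRO-seq the members as a group stood about 1 log2 unit higher in regrown cells. The median log2 difference, regrown minus parental, was 1.04 over the 143 members, with the middle range of members between 0.63 and 1.54, and 129 were above 0. The median over all genes tested was 0.02. By library, the members' median log2 level against the parental mean was -0.01, 0.03 and -0.02 in the parental libraries and 1.04, 1.04 and 1.05 in the regrown pools, so the 3 pools were alike. The members took 0.332% to 0.351% of all PRO-seq counts in parental libraries and 0.595% to 0.610% in regrown ones. All 3 pools were above all 3 parental libraries for 121 members and below for 5, beside 22.5% and 22.4% of all genes tested. These PRO-seq counts follow from how the stretch was chosen and are not used further.

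The difference had a clear position along the chromosome. The other 629 genes of chromosome 6 over the count floor had a median PRO-seq difference of -0.25. On the telomere side, DEK stood at -0.34, whereas the next genes MBOAT1, E2F3 and CDKAL1 stood at 1.18, 1.02 and 0.61 although they lie before the first member. E2F3, a cell cycle transcription factor, was at 323, 293 and 291 CPM in parental and 619, 618 and 622 CPM in regrown PRO-seq libraries. The RNA-seq differences of these 3 genes were 1.07, 1.19 and 1.16 without doxycycline (adjusted p = 0.000489, 2.03e-07 and 5.37e-06). After knockout E2F3 and CDKAL1 were called higher by less (0.84 and 0.41, adjusted p = 9.35e-05 and 0.0258) and MBOAT1 was not called (0.12, adjusted p = 0.666). Higher PRO-seq values thus reached beyond the start that the rule set, as far as MBOAT1, which the RNA-seq after knockout did not show for that gene. CDKAL1, the nearest of them, ended 137 kb before the first member.

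At the other end the change fell between the last member and the next gene considered. The last 3 members, RNF5, AGER and PBX2, stood at 1.42, 1.36 and 1.57 in PRO-seq. The next genes over the floor, TAP2, PSMB8 and PSMB8-AS1, stood at -0.27, -0.24 and -0.16, and in RNA-seq without doxycycline at -0.41, -0.95 and -1.68. The gap from the last member to TAP2 was 635 kb, a span that holds HLA genes left out here. The change from higher to not higher therefore lay somewhere in that gap.

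Within the stretch the PRO-seq difference stepped up between TRIM39 at 30.33 Mb and GNL1 at 30.54 Mb. The 4 members before 24 Mb were few and mixed, with ENSG00000286368, AL512380.2, SOX4 and CASC15 at 1.18, 0.36, 1.30 and 0.09. In windows of 2 Mb beyond them the median was 0.60 from 24 to 26 Mb, 0.66 from 26 to 28 Mb, 0.81 from 28 to 30 Mb and 1.62 from 30 to 32 Mb. Around the step, HCG18 and TRIM39 stood at 0.72 and 0.84, and RPP21, LINC02569, GNL1 and PRR3 at 1.46, 1.17, 1.54 and 1.74. The stretch is therefore described in 2 parts, with LINC02569 as the first member of the centromere side. This division was made after the values were seen and is given without a test. RPP21, although at 1.46, counts on the telomere side. The 82 telomere-side members had a median of 0.73, a fold of 1.66, and the 61 centromere-side members a median of 1.65, a fold of 3.14. The middle ranges of the 2 sides, 0.36 to 0.99 and 1.37 to 1.78, did not overlap.

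**Figure D1:**
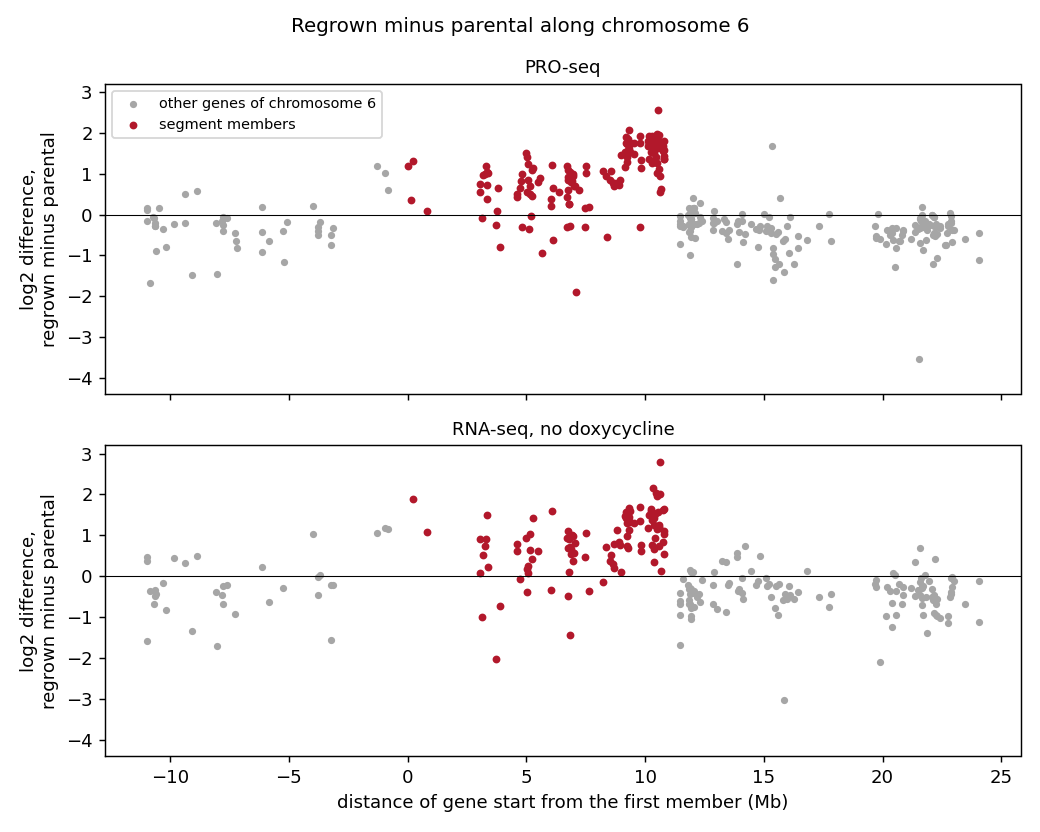
The log2 difference of each gene, regrown minus parental, against the distance of its start from the first member in Mb, for PRO-seq (upper) and RNA-seq without doxycycline (lower); red points are members and grey points other genes of chromosome 6. Members lie mostly above 0 in both panels and step up towards the centromere side, from a PRO-seq median of 0.73 to 1.65, and the grey points beyond lie mostly below 0 (median -0.25 in PRO-seq).

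The PRO-seq difference was also described by strand and by type of gene, without a test. Members on the plus strand had a median PRO-seq difference of 0.97 (n = 74) and those on the minus strand 1.13 (n = 69). The 93 protein-coding members had a median of 1.28, with 90 above 0, and the 50 others (long non-coding RNAs, pseudogenes and unnamed transcripts) 0.65, with 39 above 0. Most of those others lay on the telomere side, 41 of 50, where their median was 0.45 and that of coding members 0.84. On the centromere side the 9 others stood at 1.42 and the 52 coding members at 1.67. There were 18 pairs of members transcribed away from each other from starts within 1 kb. The median gap between partners was 0.26 on the log2 scale, beside 0.34 for the 142 pairs of next neighbours.

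The count floor of 50 fell among genes of mixed values. Just inside it were ZSCAN12P1 (mean 51.33 counts, log2 difference -0.30), ALDH5A1 (60.33, -0.08) and AL031777.1 (64.17, -0.29). Just outside it were AL662884.3 (44.83, 1.89), ENSG00000286819 (40.67, -1.42) and U91328.3 (37.83, 0.22).

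In the libraries that the rule had not used, most measured members were also higher in regrown cells. Without doxycycline, RNA-seq tested 106 members after the filter on low counts, of which 72 (67.9%) were called higher and 2 lower, beside 22.6% and 21.1% of all genes tested. The median log2 difference was 0.92, and 71 members had every pool above every parental library while 5 had every pool below, beside 21.9% and 32.5% of all genes. After ZFP91 knockout, a comparison that shares no library with the first, 87 of 109 members (79.8%) were called higher and 3 lower, beside 18.6% and 19.8% of all genes. The median was 1.12, and 93 members had every pool above every parental library while 4 had every pool below, beside 25.9% and 25.0% of all genes. Those 2 comparisons, PRO-seq and DGE all use the same 3 pools, so they repeat the measurement rather than the derivation of resistant cells. Members took 0.779% to 0.782% of RNA-seq counts in parental and 1.76% to 1.90% in regrown libraries without doxycycline, and 0.775% to 0.797% and 1.90% to 1.94% after knockout.

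DGE gave the same direction at far lower depth. Under DMSO 47 members passed the filter, of which 32 (68.1%) were called higher and 0 lower, beside 2.91% and 3.3% of all genes tested. Their median log2 difference was 1.35, and 40 had every pool above every parental library and 0 below, beside 11.3% and 11.6% of all genes. Under lenalidomide 20 of 41 members (48.8%) were called higher and 0 lower, beside 1.2% and 1.57% of all genes, with a median of 1.45. Of the 41, 26 had every pool above every parental library and 0 below, beside 10.9% and 8.71% of all genes. In both, 0 members were lower at an unadjusted p under 0.05 in edgeR and 0 in DESeq2. The count of 20 depended on single libraries: it was 5 without lenalidomide-treated parental library 1, 13 without parental library 2 and 8 without regrown pool 3, while DESeq2 called 15 and the replicate block 16. A member that passed the filter through its level in regrown cells alone had to differ, so the share called is a share of members tested and not of all 143.

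The step within the stretch appeared in each of these comparisons. In RNA-seq without doxycycline the median was 0.63 over 56 telomere-side members tested (29 higher, 2 lower) and 1.34 over 50 on the centromere side (43 higher, 0 lower). After knockout these were 0.84 (38 of 56 higher, 3 lower) and 1.44 (49 of 53 higher, 0 lower). In DGE under DMSO they were 0.79 (6 of 19 higher) and 1.52 (26 of 28 higher). Under lenalidomide they were 0.97 (3 of 16 higher) and 1.53 (17 of 25 higher). The centromere-side medians, as folds, ran from 2.53 in RNA-seq without doxycycline to 3.14 in PRO-seq.

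**Figure D2:**
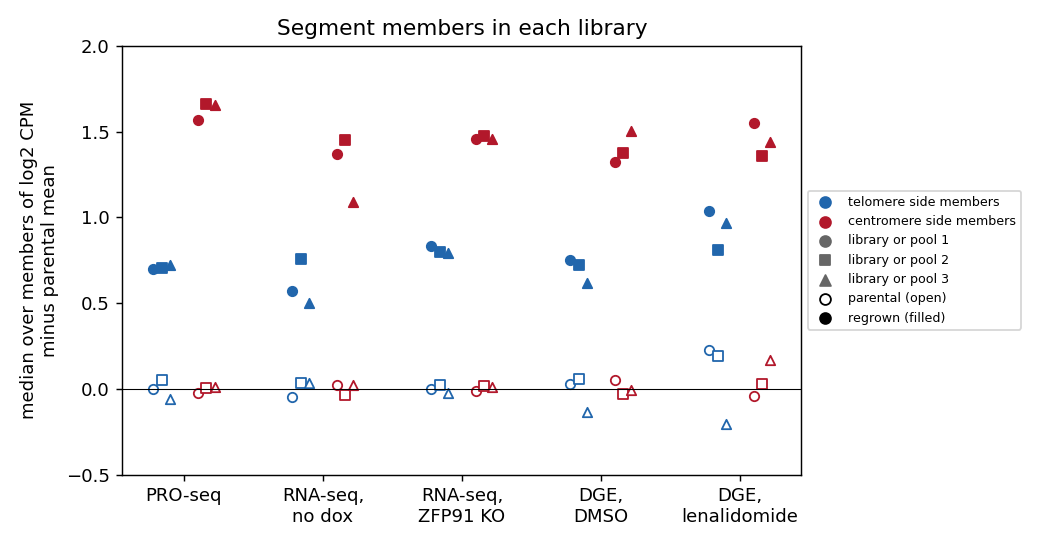
Median over members of the log2 CPM minus the parental mean, for each library of 5 comparisons; blue is the telomere side and red the centromere side, open symbols are parental and filled symbols regrown libraries. In every comparison each regrown library lies above each parental library on both sides, and the red filled symbols lie above the blue ones.

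Among 41 members tested in all 4 comparisons outside PRO-seq, 20 (48.8%) were called higher in each, beside 0.982% of 4176 genes tested in all 4. These are the 20 called under lenalidomide, where 15 of them kept the call in DESeq2, 16 with the replicate block and 5 to 19 when 1 library was left out. On the telomere side these were CASC15, C6orf62 and TRIM27. On the centromere side they were GNL1, ABCF1, MRPS18B, MDC1, TUBB, FLOT1, VARS2, BAG6, GPANK1, CLIC1, VARS, LSM2, NEU1, EHMT2, NELFE, SKIV2L and RNF5. Of 103 members tested in both RNA-seq comparisons, 71 were called higher in both, beside 11.6% of 13045 genes. For RNF5 the call under lenalidomide was among those lost in DESeq2 (adjusted p = 0.0767) and with the replicate block (adjusted p = 0.068).

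Genes of RNA processing and translation were the group with the highest PRO-seq median, 1.72 over 13 members, 12 of them on the centromere side. All 13 had an RNA-seq difference above 0 in both comparisons. Of these, 12 of 13 were called higher without doxycycline and 13 of 13 after knockout, beside 22.6% and 18.6% of all genes tested. In DGE under DMSO 10 of 12 were called higher, beside 2.91%. Without doxycycline, 43 of 50 centromere-side members and 29 of 56 telomere-side members of any role were called higher. Counts by role, here and below, therefore also follow position, and the 2 were not separated. VARS, the cytosolic enzyme that loads valine onto its transfer RNA, was at 10.6, 9.38 and 10.8 CPM in parental and 40.2, 40.5 and 37.2 CPM in regrown PRO-seq libraries. In RNA-seq without doxycycline it was at 346, 283 and 282 CPM in parental and 781, 790.2 and 873 CPM in regrown libraries. In RNA-seq the groups did not overlap, and the difference was 1.52 ± 0.10 (log2 ± SE, n = 3 per group, adjusted p = 6.15e-08). PRRC2A, a large protein that binds methylated RNA, was at 866, 946 and 887 CPM in parental and 2565, 2727 and 2598 CPM in regrown cells. It rose by 1.65 ± 0.08 (adjusted p = 4e-09), close to its PRO-seq difference of 1.81 ± 0.10. ABCF1, an ATPase that takes part in translation initiation, was at 316, 299.6 and 305 CPM in parental and 755, 815 and 748 CPM in regrown cells, a rise of 1.43 ± 0.09 (adjusted p = 1.78e-08).

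LSM2 and PPP1R10 followed the same direction with different heights in RNA. LSM2 is a subunit of the ring-shaped complexes that bind the ends of small nuclear RNA and of decaying messages. Its level was 58.1, 56.6 and 63.3 CPM in parental and 90.4, 134.1 and 91.9 CPM in regrown cells without doxycycline, where pool 2 stood apart, a rise of 0.93 ± 0.14 (adjusted p = 9.23e-05). After knockout it was 46.4, 61.8 and 55.9 and 195, 193 and 187 CPM, a rise of 1.80 ± 0.10 (adjusted p = 4.47e-06). PPP1R10, which anchors protein phosphatase 1 in the nucleus, was at 85.6, 87.1 and 77.5 CPM in parental and 245, 185 and 184 CPM in regrown PRO-seq libraries, a difference of 1.28 ± 0.13. In RNA-seq it rose by 0.73 ± 0.09 without doxycycline (adjusted p = 1.42e-05) and by 0.27 ± 0.09 after knockout (adjusted p = 0.0352). The second call was lost with a replicate block (adjusted p = 0.06) and without any one of 5 of its 6 libraries: parental libraries 2 and 3 (0.0578 and 0.105) and regrown pools 1, 2 and 3 (0.0815, 0.0746 and 0.147). DXO, which removes faulty caps from messages, had a PRO-seq difference of 1.95 ± 0.22 and rose by 1.18 ± 0.18 in RNA-seq (adjusted p = 0.000146).

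Transcription and chromatin genes had a PRO-seq median of 1.30 over 9 members. Of 8 tested without doxycycline 7 were called higher, and after knockout 8 of 9, beside 22.6% and 18.6% of all genes tested. EHMT2, a methyltransferase for lysine 9 of histone H3, was at 4.03, 5.24 and 5.78 CPM in parental and 16.6, 21.7 and 20.8 CPM in regrown PRO-seq libraries. Its RNA was at 102, 97.8 and 94.5 CPM in parental and 336, 394 and 341 CPM in regrown cells, with all 3 pools far above every parental library. The rise was 1.96 ± 0.10 (adjusted p = 2.94e-09), the same height as in PRO-seq (1.96 ± 0.19). PBX2, a homeodomain partner of HOX proteins and the last member, was at 77.1, 93.6 and 94.7 CPM in parental and 168, 191 and 147 CPM in regrown cells, a rise of 1.03 ± 0.11 (adjusted p = 5.33e-06). ATF6B, a membrane-bound factor of the unfolded protein response, rose by 1.61 ± 0.12 without doxycycline (adjusted p = 1.11e-07) and by 2.14 ± 0.10 after knockout (adjusted p = 8.96e-07).

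SOX4, an HMG-box factor of lymphoid development, had a larger rise in RNA than in PRO-seq without doxycycline. PRO-seq gave 36.9, 39.7 and 42.2 CPM in parental and 90.2, 114 and 90.0 CPM in regrown libraries, a difference of 1.30 ± 0.11. RNA-seq gave 23.7, 34.8 and 28.0 CPM in parental and 99.0, 90.2 and 108 CPM in regrown cells, a rise of 1.88 ± 0.13 (adjusted p = 6.25e-08). After knockout the levels were 37.3, 28.3 and 35.6 and 66.0, 65.7 and 70.0 CPM, a rise of 0.99 ± 0.11 (adjusted p = 0.000148). In DGE under DMSO it was at 100.5, 101 and 95.5 CPM in parental and 117, 167 and 129 CPM in regrown cells and was not called (0.47 ± 0.24, adjusted p = 0.313). ABT1, an activator of basal transcription, rose by 0.43 ± 0.09 (adjusted p = 0.00191) and HMGN4, a nucleosome-binding protein, by 0.64 ± 0.10 (adjusted p = 9.59e-05), both on the telomere side. ZNRD1, a subunit of RNA polymerase I, was not called without doxycycline (0.21 ± 0.18, adjusted p = 0.356) and rose after knockout (1.11 ± 0.19, adjusted p = 0.00143).

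Among 9 genes of genome maintenance and the cell cycle the PRO-seq median was 1.65. Of 8 tested without doxycycline 6 were called higher, and after knockout 9 of 9, beside 22.6% and 18.6% of all genes tested. TUBB, the main beta-tubulin of dividing cells, was at 22.7, 22.1 and 22.5 CPM in parental and 81.3, 72.8 and 75.6 CPM in regrown PRO-seq libraries. In RNA-seq it was at 1820.0, 1746 and 1737 CPM in parental and 4130.0, 4248 and 4059 CPM in regrown cells, and in DGE under DMSO at 951, 864 and 899 and 2067, 2149 and 1694 CPM. In RNA-seq and DGE the groups were far apart, with a rise of 1.33 ± 0.08 in RNA-seq (adjusted p = 2.44e-08) and 1.11 ± 0.15 in DGE (adjusted p = 1.01e-05). GMNN (geminin, which blocks a repeat of DNA replication) differed between assays: PRO-seq gave 74.5, 76.6 and 82.4 CPM in parental and 161, 161 and 155 CPM in regrown libraries, a difference of 1.02 ± 0.09. Its RNA was at 117, 119 and 126 CPM in parental and 138, 144 and 118 CPM in regrown cells without doxycycline and was not called (0.24 ± 0.10, adjusted p = 0.0548), though it passed without regrown pool 3 (adjusted p = 0.017). GMNN rose after knockout by 0.77 ± 0.11 (adjusted p = 0.000554). TDP2, which repairs DNA ends blocked by topoisomerase, rose by 0.73 ± 0.09 (adjusted p = 2.48e-05) and by 0.99 ± 0.10 (adjusted p = 7.08e-05). MSH5, a meiotic relative of the mismatch repair proteins, was at 3.97, 6.23 and 4.17 CPM in parental and 4.13, 7.98 and 5.00 CPM in regrown cells and was not called without doxycycline (0.36 ± 0.29, adjusted p = 0.345).

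All 8 members of the TRIM and ubiquitin list were called higher in both RNA-seq comparisons, beside 22.6% and 18.6% of all genes tested. In DGE under DMSO 5 of 7 were called higher, beside 2.91% of all genes tested. Their PRO-seq median was 1.02. The list also holds PRR3, for which no part in ubiquitination is claimed here, and these counts include it. TRIM27, a ubiquitin ligase on the telomere side, was at 23.2, 25.9 and 25.8 CPM in parental and 65.5, 56.6 and 51.1 CPM in regrown PRO-seq libraries and at 138, 129 and 143 and 259, 293 and 240.2 CPM in RNA-seq. The RNA-seq rise was 1.05 ± 0.10 (adjusted p = 1.12e-06) without overlap between groups. TRIM26, also a ligase, lies beside the step and rose by 1.12 ± 0.09 (adjusted p = 2.47e-07). TRIM38, a ligase that restrains innate immune signalling, lies far on the telomere side and rose less, by 0.63 ± 0.12 (adjusted p = 0.000611). PRR3, on the centromere side of the step, was at 74.4, 66.1 and 61.6 CPM in parental and 174, 209.8 and 178 CPM in regrown cells, a rise of 1.57 ± 0.11 (adjusted p = 6.19e-08). RNF5, a ligase of the endoplasmic reticulum membrane, rose by 1.10 ± 0.13 (adjusted p = 1.63e-05) and after knockout by 1.91 ± 0.15 (adjusted p = 1.72e-05).

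**Figure D3:**
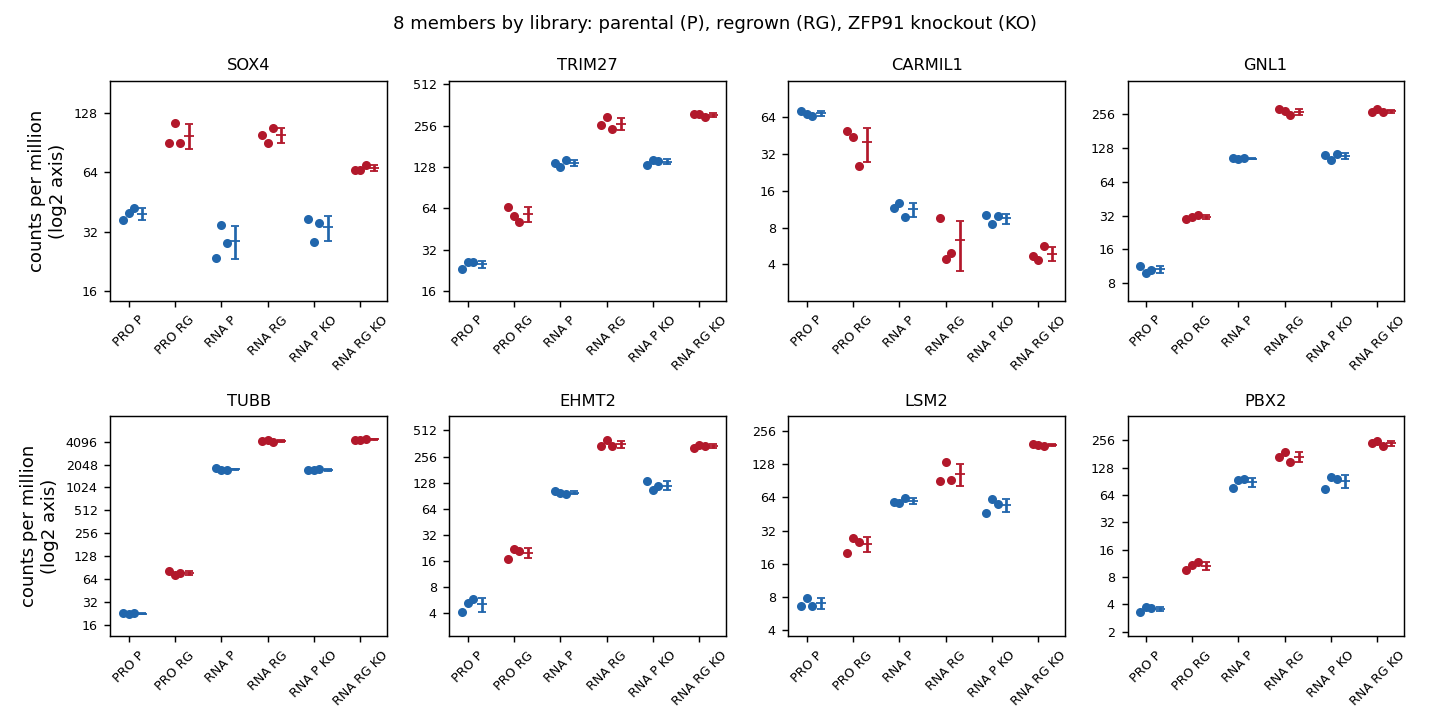
CPM (log2 axis) of 8 members in each PRO-seq library and each RNA-seq library without doxycycline (no mark) or after ZFP91 knockout (KO); blue points are parental and red points regrown libraries, with the mean and SD (n = 3) beside each group. Of the 8, CARMIL1 is lower in regrown libraries, and the other 7 are higher, with SOX4 lower after knockout than without it in regrown cells and LSM2 higher.

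The list of SCAN and KRAB zinc finger genes held 18 members, 17 of them on the telomere side. KRAB zinc finger proteins bind DNA and are known for silencing mobile elements. The list also holds the antisense RNA ZSCAN16-AS1, the pseudogene ZSCAN12P1 and ZBTB12, a zinc finger gene with a BTB domain instead. Their PRO-seq median was 0.87. In RNA-seq 13 of 17 were called higher without doxycycline and 13 of 18 after knockout, beside 22.6% and 18.6% of all genes. DGE tested 2 of them. ZKSCAN8 was at 72.7, 73.4 and 66.2 CPM in parental and 129, 121 and 133.9 CPM in regrown PRO-seq libraries and at 73.1, 83.1 and 80.3 and 161, 149 and 164 CPM in RNA-seq, a rise of 1.10 ± 0.09 (adjusted p = 3.27e-07). PGBD1, whose SCAN domain is joined to a relic of a transposase, rose by 1.01 ± 0.11 (adjusted p = 4.7e-06), and ZSCAN12 by 0.56 ± 0.13 (adjusted p = 0.00266). ZBTB12, the one on the centromere side, had the highest PRO-seq difference of all members. It was at 1.32, 1.62 and 2.32 CPM in parental and 7.74, 11.6 and 11.8 CPM in regrown PRO-seq libraries and at 9.90, 10.3 and 10.4 and 27.9, 32.9 and 23.8 CPM in RNA-seq, a rise of 1.56 ± 0.15 (adjusted p = 1.7e-06). ZSCAN16-AS1, transcribed antisense to ZSCAN16, differed between PRO-seq and RNA-seq without doxycycline. It was at 61.3, 64.1 and 60.1 CPM in parental and 123, 128 and 144 CPM in regrown PRO-seq libraries, but at 0.748, 1.35 and 2.16 and 0.815, 1.49 and 0.523 CPM in RNA-seq, which was not called (-0.49 ± 0.55, adjusted p = 0.506). After knockout it was at 1.04, 1.84 and 1.15 and 2.603, 2.05 and 2.92 CPM and was called higher (0.90 ± 0.31, adjusted p = 0.0466), a call lost with the replicate block (adjusted p = 0.0928) and without any one of 5 of the 6 libraries: parental libraries 1 and 3 (0.0765 and 0.147) and regrown pools 1, 2 and 3 (0.126, 0.0643 and 0.161). Whether the counting used strand is not given in the sources used here, so reads of an antisense gene and its partner may be mixed.

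Butyrophilins, membrane proteins of the immunoglobulin superfamily that present signals to gamma delta T cells, showed PRO-seq differences that few of their RNAs followed without doxycycline. All 5 members were on the telomere side, with a PRO-seq median of 1.24. In RNA-seq 1 of 5 was called higher without doxycycline and 4 of 5 after knockout, beside 22.6% and 18.6% of all genes. BTN3A2 was the one called in both. It was at 11.5, 16.8 and 12.7 CPM in parental and 27.6, 44.1 and 45.1 CPM in regrown PRO-seq libraries and at 49.7, 50.0 and 44.9 and 94.6, 73.1 and 92.6 CPM in RNA-seq, a rise of 0.95 ± 0.11 (adjusted p = 1.1e-05). BTN3A1 had a PRO-seq difference of 1.40 ± 0.17, from 10.0, 11.98 and 9.08 CPM to 22.9, 28.5 and 31.4 CPM. Its RNA was at 20.4, 23.2 and 19.6 CPM in parental and 23.7, 21.7 and 21.4 CPM in regrown cells and was not called (0.18 ± 0.13, adjusted p = 0.267). BTN2A2 was at 12.7, 10.5 and 12.2 CPM in parental and 11.97, 6.84 and 6.50 CPM in regrown cells and was not called (-0.39 ± 0.23, adjusted p = 0.187). It passed as lower without regrown pool 1 (adjusted p = 0.0123). After knockout its sign was the other way and it was not called (0.41 ± 0.16, adjusted p = 0.0751 in edgeR). There it passed as higher without the filter on low counts (adjusted p = 0.0429). These genes are close copies of each other, so reads could be split between them, and their values are uncertain to that extent.

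The list of TNF cluster, complement and other immune genes held 7 members, 6 on the centromere side and HFE far on the telomere side, with a PRO-seq median of 1.36. The cytokine genes TNF, LTA and LTB of that cluster were not among the members. RNA-seq called 4 of 6 higher without doxycycline (MICB, NFKBIL1, C4A and C4B) and 5 of 7 after knockout (the same 4 and AGER). Among all genes tested the shares were 22.6% and 18.6%. C4A and C4B are near-identical copies between which reads could be split, so these 2 calls are uncertain. MICB, a stress-induced ligand of the killer cell receptor NKG2D, was at 6.58, 6.83 and 6.62 CPM in parental and 19.8, 22.4 and 22.6 CPM in regrown PRO-seq libraries and at 26.8, 30.5 and 28.5 and 61.8, 65.7 and 55.1 CPM in RNA-seq. The rise was 1.19 ± 0.11 (adjusted p = 8.73e-07), and 1.66 ± 0.34 in DGE under DMSO (adjusted p = 0.00217). NFKBIL1, a relative of the inhibitors of NF-kappaB, rose by 1.49 ± 0.15 (adjusted p = 2.06e-06). The complement gene C2 had 20.8, 23.3 and 23.6 CPM in parental and 59.7, 75.2 and 75.2 CPM in regrown PRO-seq libraries, while its RNA was at 0.115, 0 and 0.0490 and 1.02, 0.309 and 0.0581 CPM and did not pass the filter. The annotated span of C2 overlaps that of ZBTB12, so the PRO-seq counts of these 2 genes may hold reads of each other. HFE, a regulator of iron uptake on the telomere side, was at 17.3, 17.3 and 15.3 CPM in parental and 16.7, 12.1 and 15.8 CPM in regrown cells and was not called (-0.07 ± 0.16, adjusted p = 0.764).

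The 15 genes of enzymes, transporters and membrane traffic had a PRO-seq median of 1.18. In RNA-seq 9 of 14 were called higher and 1 lower without doxycycline, and 11 of 13 higher and 1 lower after knockout. Of all genes tested, 22.6% were called higher and 21.1% lower without doxycycline, and 18.6% and 19.8% after knockout. These shares also apply to the cytoskeleton genes below. MRS2, a magnesium channel of mitochondria, was at 45.5, 55.2 and 48.6 CPM in parental and 84.8, 86.2 and 92.2 CPM in regrown cells, a rise of 0.92 ± 0.10 (adjusted p = 4.75e-06). ACOT13, a thioesterase of fatty acyl-CoA, rose by 0.91 ± 0.14 (adjusted p = 0.000107). The 6 genes of the cytoskeleton and nuclear envelope had a median of 1.19, with 3 of 6 higher and 1 lower without doxycycline and 3 of 5 higher and 1 lower after knockout. PPP1R18, an actin-binding protein, was at 91.4, 111 and 116 CPM in parental and 333, 324 and 296 CPM in regrown cells, a rise of 1.68 ± 0.10 (adjusted p = 2.04e-08). NRM, a protein of the inner nuclear membrane, rose by 1.12 ± 0.12 (adjusted p = 4.96e-06). ATAT1, which acetylates alpha-tubulin, rose by 0.99 ± 0.16 (adjusted p = 0.000221). The 53 members in no list had a median PRO-seq difference of 0.73. Of 21 tested in RNA-seq without doxycycline 9 were called higher, beside 22.6% of all genes.

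A few members went against the stretch, and 3 were called lower in RNA-seq, all on the telomere side. CMAHP, the human remnant of the gene for a sialic acid hydroxylase, was at 537, 526 and 382 CPM in parental and 363, 402 and 466 CPM in regrown PRO-seq libraries, which overlapped. Its RNA was at 185, 199 and 189.9 CPM in parental and 40.5, 42.1 and 48.7 CPM in regrown cells, with every pool far below every parental library (-2.03 ± 0.10, adjusted p = 2.7e-09). After knockout the difference was -1.76 ± 0.12 (adjusted p = 7.22e-06). CARMIL1, which regulates actin capping, was at 71.9, 68.0 and 64.8 CPM in parental and 49.2, 44.2 and 25.5 CPM in regrown PRO-seq libraries. Its RNA was at 11.4, 12.7 and 9.75 CPM in parental and 9.53, 4.43 and 5.00 CPM in regrown cells (-0.74 ± 0.26, adjusted p = 0.0318) and fell after knockout by the same order (-0.95 ± 0.16, adjusted p = 0.0016). The first of these calls was lost without parental library 1 or 2 (adjusted p = 0.0836 and 0.104) or regrown pool 2 or 3 (0.0852 and 0.0816). The pseudogene TOB2P1 was at 1.04, 0.818 and 1.79 CPM in parental and 0.217, 0.263 and 0.320 CPM in regrown cells after knockout, a low level (-2.18 ± 0.47, adjusted p = 0.00582).

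The lowest PRO-seq differences belonged to ENSG00000287804, LARRPM, CARMIL1 and AL021918.3. ENSG00000287804 was at 14.0, 13.5 and 11.3 CPM in parental and 5.29, 4.48 and 0.869 CPM in regrown libraries, with pool 3 far below the others. LARRPM, a long non-coding RNA, was at 21.0, 20.9 and 23.6 CPM in parental and 12.2, 10.8 and 11.4 CPM in regrown libraries. These 4 genes lie among raised neighbours of the telomere side, so the difference was not uniform from gene to gene there.

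Across members the RNA difference followed the PRO-seq difference in part. Over 106 members tested, 95 were above 0 in both PRO-seq and RNA-seq without doxycycline, 6 in PRO-seq alone, 1 in RNA-seq alone and 4 in neither. Pearson's r was 0.645 and Spearman's rho 0.62 (n = 106), as a description only, since neighbouring genes share the same libraries and the same step. The median RNA-seq difference was 0.27 lower than the PRO-seq difference on the log2 scale. After knockout r was 0.67 over 109 members, and DGE under DMSO gave 0.701 over 47. The 16 members called higher in neither RNA-seq comparison were GPLD1, KIAA0319, CMAHP, CARMIL1, HFE, BTN2A2, ZNF391, ZNF192P1, TOB2P1, ZSCAN31, AL662890.1, ZNF311, MICE, AL645929.1, ZNRD1ASP and VWA7. GABBR1, a subunit of the GABA type B receptor, was among those whose signs differed without doxycycline. Its PRO-seq difference was 1.07 ± 0.19. Its RNA was at 5.70, 10.3 and 10.2 CPM in parental and 7.85, 8.49 and 5.87 CPM in regrown cells (-0.14 ± 0.24, adjusted p = 0.669). After knockout GABBR1 was called higher in edgeR (0.63 ± 0.13, adjusted p = 0.00418), the direction of PRO-seq.

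**Figure D4:**
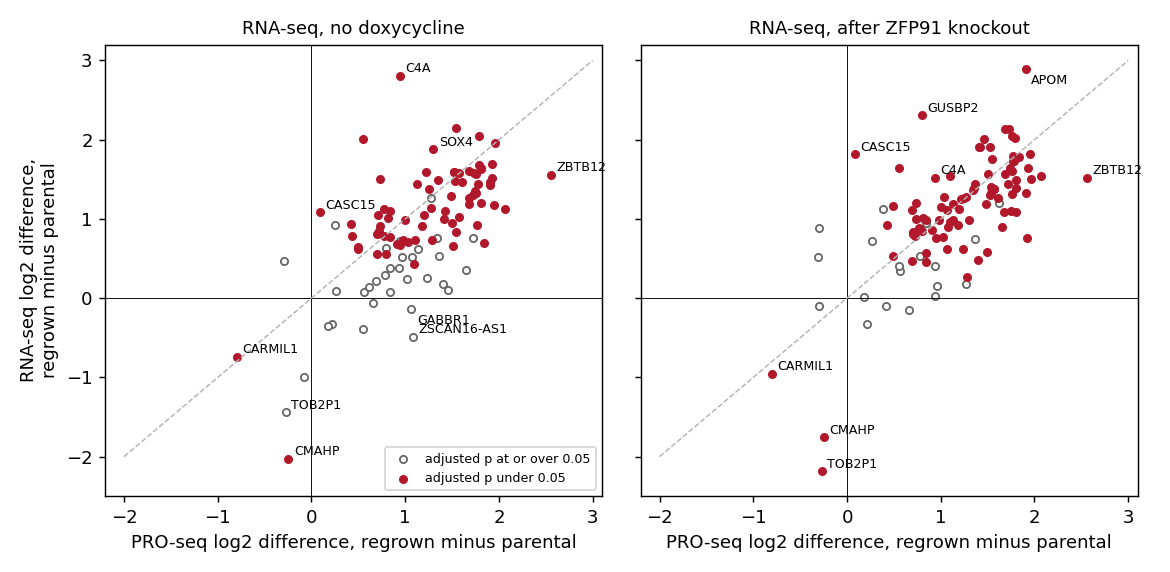
The RNA-seq log2 difference against the PRO-seq log2 difference of each member tested, regrown minus parental, without doxycycline (left, n = 106) and after ZFP91 knockout (right, n = 109); red points passed adjusted p under 0.05 in RNA-seq and the dashed line marks equal differences. Most points lie in the upper right of each panel (95 and 100 members above 0 in both), and CMAHP, CARMIL1 and TOB2P1 lie below 0 in both panels.

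No member was called after ZFP91 knockout in parental cells. In edgeR 0 of 105 members were called, beside 0.427% of all genes, with 10 at an unadjusted p under 0.05, 0 in DESeq2 and 2 in edgeR without the filter on low counts. The median difference, knockout minus no doxycycline, was -0.02. In regrown cells 24 of 108 members (22.2%) were called higher and 11 (10.2%) lower, beside 16.3% and 15.7% of all genes tested, with a median of 0.10. The count of 35 was 18 without knockout pool 1 and 23 without knockout pool 2. C6orf136 was at 20.8, 28.1 and 19.9 CPM without doxycycline and 51.6, 57.9 and 45.3 CPM after knockout in the regrown pools, a rise of 1.12 ± 0.13 (adjusted p = 0.000314). DDAH2, which breaks down methylated arginine, rose by 1.16 ± 0.17 (adjusted p = 0.000684), LSM2 by 0.82 ± 0.13 (adjusted p = 0.000798) and ZNRD1 by 0.97 ± 0.15 (adjusted p = 0.000858). SOX4 fell, with a difference of -0.60 ± 0.09 (adjusted p = 0.000663).

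The response to knockout was compared between the 2 kinds of cell by an interaction term, regrown response minus parental response. Of 114 members tested 11 were called above 0 and 3 below, beside 4.47% and 5.33% of all genes tested. By p the first 5 were SOX4 (-0.87 ± 0.18, adjusted p = 0.0238), LSM2 (0.89 ± 0.19, adjusted p = 0.0245), VARS (-0.74 ± 0.18, adjusted p = 0.0291), HMGN4 (0.55 ± 0.14, adjusted p = 0.0302) and C6orf136 (1.11 ± 0.28, adjusted p = 0.0308). VARS was at 346, 283 and 282 and 453, 317 and 375 CPM in parental cells without doxycycline and after knockout, and at 781, 790.2 and 873 and 588, 684 and 681 CPM in regrown cells, so it was lower after knockout in regrown cells alone. These calls rested on single libraries: leaving out parental libraries 2 or 3 without doxycycline, parental knockout library 3, regrown pools 1 or 3 without doxycycline, or knockout pools 1 or 2 left 0 members called. The same count was 28 without regrown pool 2 without doxycycline, 24 without parental knockout library 2, 6 without parental knockout library 1 and 5 without knockout pool 3. It was 23 in DESeq2 and 26 without the filter on low counts.

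The length of a gene moved with these knockout values. Over all 11912 genes with a length, the knockout difference in regrown cells had a Spearman's rho of -0.327 with gene length, and over the 108 members -0.332. For the interaction the values were -0.286 and -0.317. Shorter members, up to 11.1 kb (n = 53), had a median knockout difference of 0.27 in regrown cells, and longer ones (n = 53) 0.00. In single libraries, the level against the mean of all 12 had a rho with length of 0.179, 0.136 and 0.300 in the regrown pools without doxycycline and of -0.15, -0.148 and -0.064 after knockout. In parental libraries rho was -0.004, -0.075 and -0.253 without doxycycline and 0.165, -0.316 and -0.1 after knockout. Libraries of 1 parental group thus differed as widely as the regrown groups did from each other. These correlations run across genes, which are not independent replicates, and the part of length in the knockout results was not tested. For the regrown against parental difference without doxycycline, rho was 0.215 over all genes and -0.041 over members. After knockout it was -0.022 over all genes and -0.271 over members, with a median difference of 1.28 for the shorter members and 0.99 for the longer ones.

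Lenalidomide for 18 h moved no member past the threshold. In parental cells 0 of 39 were called in edgeR (1 at an unadjusted p under 0.05, 0 in DESeq2), beside 0.845% of all genes. In regrown cells 0 of 49 were called (2 unadjusted, 0 in DESeq2), beside 0.23%. For the interaction 0 of 51 were called (1 unadjusted, 0 in DESeq2), beside 0.0%. TUBB was at 951, 864 and 899 CPM in DMSO and 849, 866 and 625 CPM in lenalidomide in parental cells (-0.10 ± 0.17). In regrown cells it was at 2067, 2149 and 1694 and 1555, 1616 and 1985 CPM (-0.17 ± 0.18). VARS was at 101, 80.8 and 72.2 CPM in parental and 434, 400.3 and 503 CPM in regrown cells under the drug. Depth was low, and the size of change that these 3 fits could call was not tested. A p that misses the threshold therefore does not show that the drug left these genes alone.

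The CSNK2B vector raised a gene that lies within the stretch but is no member, and its neighbours were examined for movement with it. In SU-DHL-1 1 of 107 members was called higher and 1 lower, beside 3.39% and 3.34% of all genes, and the median was -0.02. TRIM27 was at 102, 105 and 103 CPM with the empty vector and 116, 117 and 113 CPM with CSNK2B, a rise of 0.15 ± 0.04 (adjusted p = 0.0228). RNF5 was at 51.5, 48.7 and 47.9 and 43.8, 42.5 and 42.2 CPM, a fall of small size (-0.21 ± 0.05, adjusted p = 0.0113). RNF5 lost its call without empty-vector library 1 (adjusted p = 0.133), and TRIM27 without empty-vector library 1 or 3 (0.114 and 0.0839) or CSNK2B library 1 or 2 (0.0659 and 0.0701), so that 0 members were called without empty-vector library 1. With a replicate block 2 were higher and 5 lower. The members took 0.721% to 0.729% of counts with the empty vector and 0.711% to 0.714% with CSNK2B.

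In KI-JK more genes moved in general, and members moved more often down than up. Of 102 members 12 (11.8%) were called higher and 29 (28.4%) lower, beside 18.4% and 17.3% of all genes tested, with a median of -0.10. CCHCR1, a coiled-coil protein of the centrosome, was at 82.2, 82.1 and 83.3 CPM with the empty vector and 60.8, 62.5 and 58.9 CPM with CSNK2B (-0.42 ± 0.05, adjusted p = 3.57e-07). BTN3A2 was at 44.5, 46.2 and 43.8 and 32.3, 28.9 and 35.1 CPM (-0.46 ± 0.07, adjusted p = 1e-05). GPLD1, which cuts proteins from their lipid anchors, was at 15.6, 17.7 and 20.1 and 9.45, 10.1 and 11.9 CPM (-0.73 ± 0.10, adjusted p = 1e-05). In the other direction ABCF1 was at 229.6, 223 and 224 and 271, 267 and 273 CPM (0.28 ± 0.04, adjusted p = 1.79e-06), and TRIM26 rose by 0.31 ± 0.05 (adjusted p = 3.76e-05). By role, 4 of 8 members of the TRIM and ubiquitin list were higher, PRR3 among these 4, and 0 lower. Of 14 enzymes and transporters 7 were lower and 1 higher. In neither line did the vector shift the members as a block by the size seen between regrown and parental cells.

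**Figure D5:**
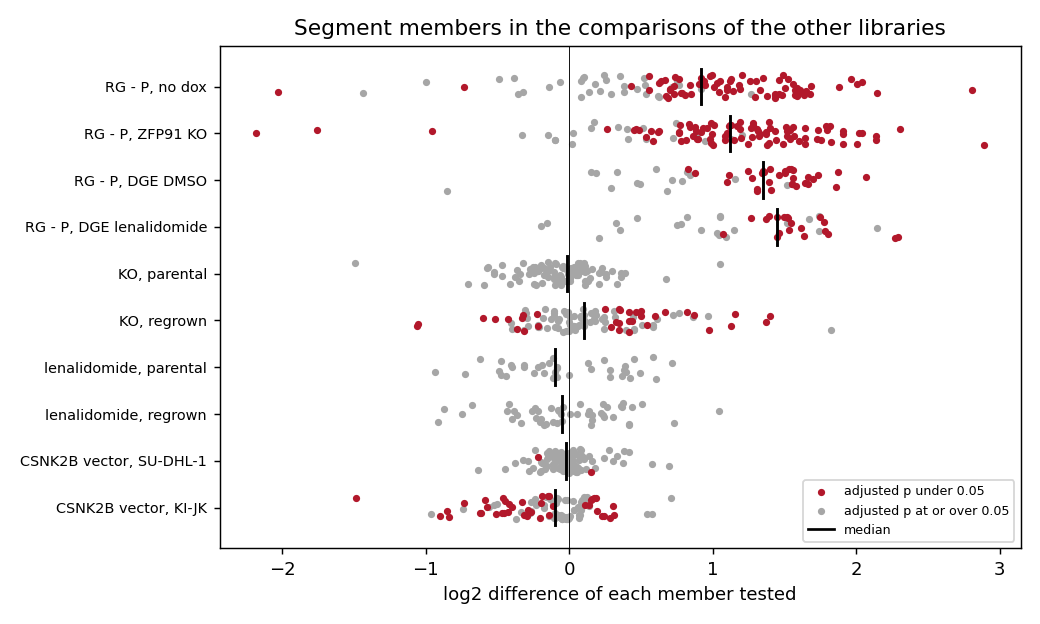
The log2 difference of each member tested in 10 comparisons outside PRO-seq, with the median as a black bar and members at adjusted p under 0.05 in red; RG is regrown, P parental and KO ZFP91 knockout. The 4 comparisons of regrown with parental cells have medians from 0.92 to 1.45, and the 6 others lie around 0, from -0.10 to 0.10.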

How the data were processed

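The deposited tables held raw counts per gene, whole numbers that the authors had not normalized, for PRO-seq, RNA-seq and DGE. Per the submitters' processing notes, PRO-seq used cutadapt 1.14, Bowtie 1.2.2 and featureCounts 1.6.2 on hg38, RNA-seq used STAR 2.6.1d, DESeq2 1.20.0 and edgeR 3.24.3 on hg38, and DGE used FastQC, Bowtie2 2.2.3 and DESeq2 on hg19. The counting tool for RNA-seq and DGE, the use of strand, and any collapsing of molecular identifiers are not given in the sources used here, so counts may hold reads of overlapping or near-identical genes. All columns of per-sample values were matched to a sample (0 were not).

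Each of 13 comparisons was fitted to its own groups in edgeR 4.0.16 (R 4.3.3) with filterByExpr, TMM scaling and the two-sided quasi-likelihood test, and p-values were adjusted by the method of Benjamini and Hochberg over the whole table tested. Calls required an adjusted p under 0.05. Differences are log2, and the SE is the difference divided by the square root of F. CPM are counts scaled to the library total. Log2 CPM by library used the TMM-adjusted total and a prior count of 2. Fits were tested on simulated data in 2 of the comparisons of regrown with parental cells, each with 200 genes changed 2-fold. In RNA-seq without doxycycline 73% of these genes were recovered, and 10.4% of calls were false, against a threshold of 0.05. In DGE under DMSO 56.7% were recovered and 3.8% of calls were false. Precision was limited by 3 libraries per group and, in DGE, by depth.

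The members and the role lists were chosen with earlier results of these data known. Genes named in the text are up to 4 per role list by PRO-seq CPM, the first and last 3 members and their outer neighbours, the 4 highest and 4 lowest PRO-seq differences, members called lower, up to 5 called members by p in each treatment comparison, and up to 4 with opposite signs between assays. Genes at the step, those near the count floor, members called in all 4 comparisons outside PRO-seq and those called in neither RNA-seq comparison were named after their values were seen.

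Same-numbered libraries were checked for pairing by the correlation of their deviations from the group means. For knockout and lenalidomide within regrown cells the labels tie the number to the pool, so numbers pair there (r from 0.006 to 0.101, and from -0.068 to 0.118). Elsewhere only a number is shared. Alternatives were no filter or a mean of at least 1 CPM, DESeq2 size factors, library size only, TMM without the segment, DESeq2 1.42.0, a replicate block, other count floors (10 and 200) and leaving out each library. The 38 ChIP-seq samples were not analysed here.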

Additional observations from a re-analysis of the deposited data

Results flagged for a closer look

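The response of 14 of 114 members to ZFP91 knockout differed between regrown and parental cells by the interaction term of the edgeR fit (n = 3 per group, adjusted p under 0.05). Of members tested 9.65% were called above 0 and 2.63% below, beside 4.47% and 5.33% of all genes tested. Each of the 14 is given here as the regrown response minus the parental response on the log2 scale. In 11 the value was above 0: GUSBP2 (1.703), C6orf136 (1.11), ZNRD1 (0.927), LSM2 (0.893), RNF5 (0.833), CASC15 (0.756), ZSCAN9 (0.601), GMNN (0.556), ABT1 (0.555), ATF6B (0.551) and HMGN4 (0.551). In 3 it was below 0: SOX4 (-0.866), VARS (-0.736) and PPP1R10 (-0.441). GUSBP2 is a pseudogene with near-identical copies elsewhere, and its value is uncertain for that reason. The count of 14 fell to 0 when any one of 7 of the 12 libraries was left out. No member was called for the lenalidomide interaction (0 of 51 in edgeR, 1 at an unadjusted p under 0.05, 0 in DESeq2).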

How the results depend on the processing

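Over 173 results for single genes and 2243 combinations with an alternative, 2141 kept direction and side of the threshold, 89 fell short of it, 13 newly passed it and 0 changed direction. The 4 comparisons of regrown with parental cells outside PRO-seq kept medians of 0.82 to 1.48 under every alternative run. With a PRO-seq floor of 200 counts the PRO-seq median was 1.095 (1.038 as reported), the KI-JK vector median -0.087 and the SU-DHL-1 vector count 1. The floor of 10 was run only for comparisons outside DGE. With library size only, the median was -0.048 for knockout in parental cells, 0.178 for the knockout interaction, -0.151 for lenalidomide in parental cells and -0.118 for the KI-JK vector, and the SU-DHL-1 vector count was 4. Without the filter, 2 members were called for knockout in parental cells and 26 for the knockout interaction, for which DESeq2 called 23. The replicate block called 7 members for the SU-DHL-1 vector, where the numbers pair nothing known, and 41 (30 higher, 11 lower) for knockout in regrown pools, where they pair pools; for lenalidomide in regrown pools it called 0. For these paired comparisons it changed no other call that the text names.

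Leaving out 1 library gave these ranges. Medians: PRO-seq 1.043 to 1.069, regrown against parental after knockout 1.066 to 1.137, the same under lenalidomide 1.303 to 1.468, knockout interaction 0.092 to 0.197, lenalidomide in parental cells -0.169 to 0.05, SU-DHL-1 vector -0.038 to -0.012 and KI-JK vector -0.11 to -0.082. Counts: DGE under lenalidomide 5 to 21, knockout in regrown cells 18 to 50, knockout interaction 0 to 28 and SU-DHL-1 vector 0 to 3. The cause was not tested in any of these cases. A dropped library leaves 2 in its group, with spread pooled over both groups. Depth limits DGE most: its shallowest library held 41571 counts, and 41 to 47 of 143 members could be tested between regrown and parental cells.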
